A study of Mus musculus with 6 samples.

Results

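Nuclear genes for the subunits and assembly factors of the mitochondrial oxidative phosphorylation complexes were followed in CD8 T cells of mouse spleen. Members were the genes whose symbol begins with Nduf, Uqcr, Atp5 or Cox with a digit from 4 to 8, without pseudogene and opposite-strand entries, and with at least 1 FPKM (fragments scaled by transcript length and library size) in at least 3 libraries. The authors' table lists 17744 genes, of which 10655 passed this filter. The symbol rule found 89 genes, and 84 of them passed. The cells had been sorted as CD45+ CD3+ CD8a+ cells, and RNA-seq was run on 6 libraries. The 3 control libraries carry the genotype label wt and the treatment label control. The 3 ultrasound libraries carry the label fus irradiation under both genotype and treatment, and fus is read here as the focused ultrasound named in the series title, a method that concentrates sound waves on a tissue. The labels used here state no strain, age, sound dose, time after treatment or tumor status of the mice, and do not say whether each library came from a separate animal, so p-values measure the spread between these libraries.

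Oxidative phosphorylation couples electron transfer along the inner mitochondrial membrane to the synthesis of ATP. Complex I passes electrons from NADH to ubiquinone, complex III passes them on to cytochrome c, complex IV reduces oxygen, and complex V, the ATP synthase, uses the resulting proton gradient. Each of these complexes is assembled from subunits encoded in the nucleus and subunits encoded in mitochondrial DNA. In T cells, resting and memory cells rely largely on this pathway, whereas activated effector cells also draw on glycolysis.

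The libraries held between 35024080 and 38113103 reads that could be recovered from the deposited values. Ultrasound 2 and ultrasound 3 stood apart from the other 4 libraries. The 13 mitochondrially encoded subunit genes accounted for 0.954% and 0.937% of the reads of these libraries, whereas their share was 2.19% in ultrasound 1 and between 2.05% and 2.70% in control libraries. The 10 CD8 T cell markers listed had a summed level of 2446 to 2569 FPKM in controls and 2118 to 2622 FPKM in ultrasound libraries, and 1 of them, Themis, passed the limma test used below, lower in ultrasound libraries. The 13 macrophage and monocyte markers summed to 639 to 1298 FPKM in controls and 2545 to 4105 FPKM in ultrasound libraries, with 6 of 13 called higher. The 10 neutrophil markers summed to 189 to 575 FPKM in controls, 2388 FPKM in ultrasound 1 and 634 and 669 FPKM in ultrasound 2 and 3, with 1 of 10 called higher. The 10 B cell markers summed to 243 to 374 FPKM in controls, 179 FPKM in ultrasound 1 and 945 and 820 FPKM in ultrasound 2 and 3, with none of the 9 tested called by limma and 0 at an unadjusted p under 0.05. The 7 NK cell markers summed to 350 to 363 FPKM in controls and 273 to 591 FPKM in ultrasound libraries, with 1 of the 6 tested called higher. Sums for CD4 T cell, dendritic cell, erythroid and platelet markers ran from 155 to 183, 21.1 to 42.6, 85.1 to 135 and 1.047 to 2.77 FPKM in controls and from 114 to 183, 23.6 to 76.4, 57.3 to 113 and 1.86 to 4.45 FPKM in ultrasound libraries, with none called and 5 genes at an unadjusted p under 0.05. None of the listed markers was at 0 reads in all 6 libraries. The part of these other cells in the results that follow was not tested. In bulk samples, fewer cells of a type and less RNA per cell cannot be told apart.

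The comparison of ultrasound with control libraries asked which of the 84 genes differed in transcript level. None passed an adjusted p of 0.05 in either direction by limma on log2(FPKM + 1), whereas 8.11% of all genes tested did, 6.55% higher and 1.56% lower. The voom method on recovered reads also called none of the 84, and its count over all genes tested is not given here. An unadjusted p under 0.05 was reached by 18 members, or 21.4%, against 31.2% of all genes tested. Of these 18, 12 were higher and 6 lower in ultrasound libraries, against 22.6% and 8.57% of all genes tested, with limma adjusted p from 0.0820 to 0.142. The median log2 difference, ultrasound minus control, was 0.09 over the members and 0.09 over all genes tested. Differences of single members ran from -0.85 for Atp5k to 0.75 for Ndufa12. The members lay above 0 in 64.3% of cases and all genes tested in 61.7%. With median-of-ratios size factors the member share fell to 47.6%, with a median of -0.02 over members and -0.01 over all genes, so the balance of directions depended on the scaling. The share of all genes above 0 with these factors is not given here. Counts of directions by class below, and the 61.7% beside them, use FPKM scaling alone.

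The 3 ultrasound libraries differed from one another over the 84 genes. Ultrasound 1 lay within the range of the controls for 52 members, or 61.9%, against 32.3% of all genes tested, and was above all controls for 12 (14.3%, against 44.6%) and below all controls for 20 (23.8%, against 23.1%). Its log2 deviations from the control mean had an SD of 0.14 over the members, against 0.40 over all genes tested. In ultrasound 2 and 3 the SD over the members was 0.39 in both, against 0.56 and 0.62 over all genes. Both of these libraries lay above the other 4 for 41 members (48.8%, against 37.3%) and below them for 19 (22.6%, against 25.4%), together 71.4% of members against 62.8% of all genes tested. All 3 ultrasound libraries were above every control for 8 members and below every control for 5, or 15.5% of members against 34.8% of all genes tested, of which 25.9% lay above and 8.96% below. The controls themselves were shifted over the members, with median deviations of 0.10, -0.06 and -0.04 in controls 1, 2 and 3. Over all genes tested these were -0.0001, 0.01 and -0.02. The median level was 53.1 FPKM for members and 10.6 FPKM for all genes tested. The part of control range and level in these shares and SDs was not tested. In the plot of deviations by class the ultrasound 1 points lie close to the controls, and those of ultrasound 2 and 3 spread to both sides.

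**Figure D1:**
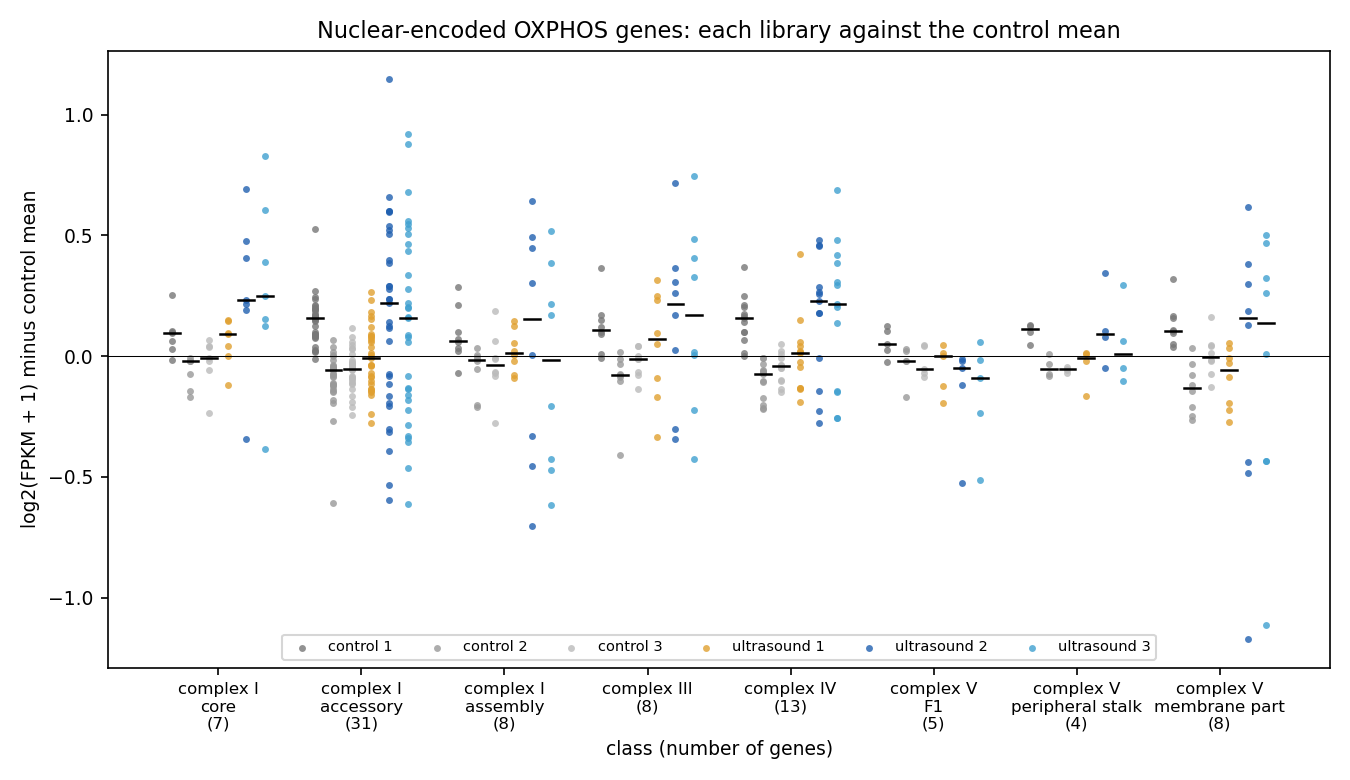
Difference of log2(FPKM + 1) from the mean of the 3 controls (y axis) for each of the 84 genes in each library, by class (x axis, number of genes in brackets); black bars are class medians. The controls enter their own mean. The SD over the members is 0.39 in ultrasound 2 and in ultrasound 3, against 0.14 in ultrasound 1.

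The count of calls rested on ultrasound 1. Without that library limma called 35 members higher and 13 lower, 41.7% and 15.5% of members against 34.1% and 19.7% of all genes tested (in both directions 57.1% against 53.7%), with ultrasound 2 and 3 as the only treated libraries. With median-of-ratios size factors in the same 5 libraries 19 members (22.6%) were called higher and 20 (23.8%) lower. The shares of all genes tested were 23.8% and 26.1% (in both directions 46.4% of members against 49.9%). The calls of single members without ultrasound 1 in the paragraphs below use FPKM scaling alone, so they share this dependence on scaling. When ultrasound 2 and 3 were given a term of their own in limma, so that ultrasound 1 alone stood against the controls, none was called, against 1.41% of all genes tested, and 2 members had an unadjusted p under 0.05, or 2.38% against 22.1% of all genes tested. Without control 1, Cox6b2 alone of the members was called (log2 difference 0.71, limma adjusted p 0.0462). The count over all genes in that fit is given in the closing section on processing. Cox6b2 met the FPKM filter through the group where it was high, so this call is not independent of the filter.

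Complex I holds 7 nuclear core subunits that carry the flavin, the iron-sulfur clusters and the quinone site. Of the 7, 6 had a positive log2 difference, beside 61.7% of all genes tested. Ndufs8, an iron-sulfur subunit near the quinone site, had the most positive value of the class. Its level was 36.5, 30.2 and 35.7 FPKM in controls 1, 2 and 3 and 34.1, 55.6 and 61.3 FPKM in ultrasound 1, 2 and 3. Ultrasound 1 thus lay inside the control range and the other two libraries well above it, and the log2 difference of 0.51 (standard error 0.22) had a limma adjusted p of 0.167. Ndufs1, the largest iron-sulfur subunit, was the most negative of the class. It had 27.4, 26.1 and 25.1 FPKM in controls and 27.0, 20.4 and 19.8 FPKM in ultrasound 1, 2 and 3, with a log2 difference of -0.23 (standard error 0.13, limma adjusted p 0.258). Ndufs7 and Ndufv1, an iron-sulfur and the flavin-binding subunit, had no overlap between the groups, all ultrasound values being higher, with log2 differences of 0.39 and 0.18 and limma adjusted p of 0.116 and 0.166. Without ultrasound 1 all 4 of these genes were called, as were 53.7% of all genes tested. The log2 differences were then 0.76 for Ndufs8, -0.36 for Ndufs1, 0.51 for Ndufs7 and 0.19 for Ndufv1 (limma adjusted p from 0.0011 to 0.0392).

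Among 31 accessory subunits of complex I, which surround and stabilise the core, 19 had a positive and 12 a negative log2 difference. Over all genes tested 61.7% were positive. Ndufa12 had the most positive value of all 84 genes. It lies on chromosome 10 from 94198720 to 94221443 (mm10, GENCODE M21, plus strand). Its level was 18.7, 16.5 and 13.4 FPKM in the controls, 18.4 FPKM in ultrasound 1 and 36.8 and 31.3 FPKM in ultrasound 2 and 3. Ultrasound 1 was again within the controls, and the log2 difference of 0.75 had a standard error of 0.26 and a limma adjusted p of 0.110. Without ultrasound 1 the value was 1.03 (limma adjusted p 0.00197), in a fit that called 53.7% of all genes tested. Ndufa11, a membrane subunit on chromosome 17 from 56717767 to 56722141, had the lowest adjusted p of all members. It had 8.19, 6.81 and 6.98 FPKM in controls and 8.76, 12.1 and 14.2 FPKM in ultrasound 1, 2 and 3. The groups did not overlap, with ultrasound 1 just above control 1, and the log2 difference of 0.59 (standard error 0.17) had a limma adjusted p of 0.0820. Its annotated exons share 70 bases with Vmac on the opposite strand, a gene at 6.06 to 9.07 FPKM.

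Ndufb4, a further membrane subunit, had 32.6, 26.5 and 24.0 FPKM in controls and 33.2, 42.1 and 44.6 FPKM in ultrasound 1, 2 and 3, without overlap (log2 difference 0.51, standard error 0.15, limma adjusted p 0.0853). Its copies Ndufb4b and Ndufb4c, near the limit of detection, may share reads with it, so the values of all 3 are uncertain. Ndufb1 was the most negative accessory subunit. Its values were 81.2, 72.7 and 86.7 FPKM in controls, 72.73 FPKM in ultrasound 1, just above control 2, and 54.9 and 51.9 FPKM in ultrasound 2 and 3. The log2 difference was -0.43 (standard error 0.15, limma adjusted p 0.110). Ndufa3 was the most abundant accessory subunit and showed opposite deviations among the ultrasound libraries. It stood at 126, 97.0 and 109 FPKM in controls, at 90.7 FPKM in ultrasound 1, below all of them, and at 157 and 161 FPKM in ultrasound 2 and 3, above all of them. Its log2 difference was 0.26 (limma adjusted p 0.458) and, without ultrasound 1, 0.53 (limma adjusted p 0.0067). Ndufa11, Ndufb4 and Ndufb1 were called without ultrasound 1 as well, with log2 differences of 0.77, 0.64 and -0.57. In that fit 53.7% of all genes tested were called.

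**Figure D2:**
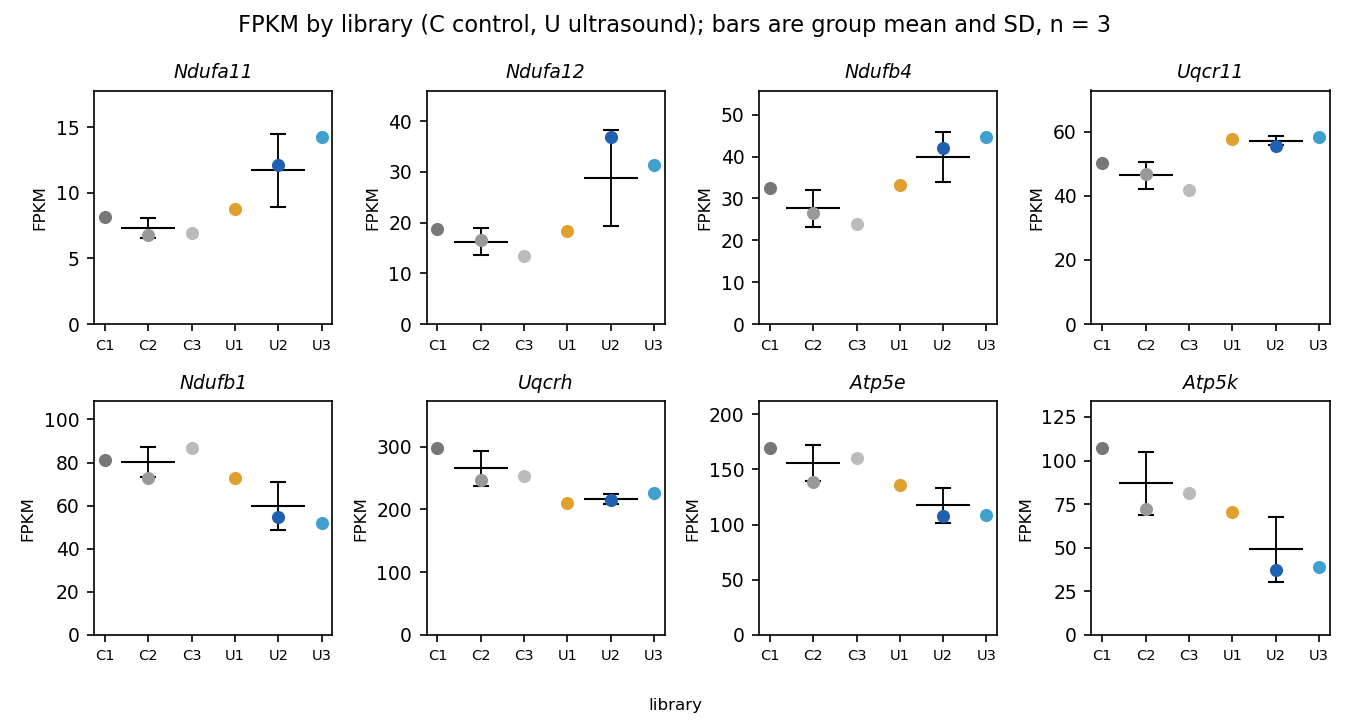
FPKM (y axis, from 0) in each library (x axis) for 8 members; horizontal bars and whiskers are the group mean and SD, n = 3. Ndufa11, Ndufb4 and Uqcr11 have all ultrasound libraries above the controls, Uqcrh, Atp5e and Atp5k have all below, and in Ndufa12 and Ndufb1 ultrasound 1 lies inside the control range.

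The 8 assembly factors of complex I, which build the complex and do not stay in it, were expressed at a median of 6.48 FPKM, against 42.2 FPKM for core subunits. Of the 8, 4 had a positive and 4 a negative log2 difference, beside 61.7% positive over all genes tested. Ndufaf3 was the most positive, with 6.75, 6.37 and 6.07 FPKM in controls and 6.41, 10.5 and 8.66 FPKM in ultrasound 1, 2 and 3 (log2 difference 0.34, limma adjusted p 0.202). Ndufaf4 was the most negative, with 6.10, 6.49 and 6.78 FPKM in controls and 7.24, 3.57 and 3.87 FPKM in ultrasound 1, 2 and 3 (log2 difference -0.39, limma adjusted p 0.264). In Ndufaf4 ultrasound 1 was above and the other two below every control. The proteins of both genes act together at an early step of complex I assembly. Ndufaf8, the most abundant factor, had 18.6 ± 2.81 FPKM in controls and 14.8 ± 2.93 FPKM in ultrasound libraries (SD, n = 3 each). Ndufaf2, a paralogue of Ndufa12 that occupies its place during assembly, had 6.83, 5.37 and 4.30 FPKM in controls and 6.001, 4.10 and 3.77 FPKM in ultrasound 1, 2 and 3, lower in ultrasound 2 and 3 than in every control. Of its annotated exon bases, 65.7% also belong to the opposite-strand transcript B230220B15Rik. Without ultrasound 1 the log2 difference was -0.66 for Ndufaf4 (limma adjusted p 0.00123), 0.51 for Ndufaf3 (0.00527) and -0.46 for Ndufaf8 (0.0151), all called. Ndufaf2 went from -0.21 to -0.38 and was not called (limma adjusted p 0.0863). In that fit 53.7% of all genes tested were called.

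All 8 nuclear subunits of complex III listed under the Uqcr prefix were tested, and 4 of them had an unadjusted p under 0.05, beside the 31.2% of all genes tested given above. Uqcrh, the acidic hinge protein that helps cytochrome c dock, was the most abundant and the most negative. It had 298, 246 and 253 FPKM in controls and 210, 215 and 226 FPKM in ultrasound 1, 2 and 3, so that all 3 treated libraries, ultrasound 1 lowest, were below the controls. The log2 difference was -0.29 (standard error 0.10, limma adjusted p 0.123). Uqcr11, a small subunit, had 50.3, 46.8 and 41.9 FPKM in controls and a narrow range of 57.8, 55.6 and 58.2 FPKM in ultrasound 1, 2 and 3 (log2 difference 0.30, standard error 0.09, limma adjusted p 0.0900). Uqcrc1, a core protein, was also above every control, at 81.7, 98.6 and 107 FPKM against 74.6 to 78.5 FPKM (limma adjusted p 0.124). Uqcrq, a ubiquinone-binding subunit, had the most positive log2 difference of the class, 0.57 with a standard error of 0.22, and overlapping groups. Its values were 25.7, 14.6 and 20.3 FPKM in controls and 23.6, 33.0 and 33.6 FPKM in ultrasound 1, 2 and 3. Uqcrfs1, the Rieske iron-sulfur protein, had 61.1 to 68.9 FPKM in controls, 66.9 FPKM in ultrasound 1 and 50.8 and 47.9 FPKM in ultrasound 2 and 3. Without ultrasound 1 its log2 difference went from -0.24 to -0.38 (limma adjusted p 0.00518). Uqcr11, Uqcrc1 and Uqcrq were then called too, beside 53.7% of all genes tested, with differences of 0.29, 0.42 and 0.73. Uqcrh was not called, at -0.26 (limma adjusted p 0.0527). These calls use FPKM scaling alone.

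Complex IV, cytochrome c oxidase, has several nuclear subunits with a ubiquitous form and a form known from muscle, testis or lung. Of 13 tested genes of this complex, 9 had a positive and 4 a negative log2 difference, beside 61.7% positive over all genes tested. Cox4i1 led with 289, 257 and 263 FPKM in controls and 246, 305 and 313 FPKM in ultrasound 1, 2 and 3. Its log2 difference of 0.09 turned sign with median-of-ratios and upper-quartile factors. Cox6a1 had 139 to 152 FPKM in controls, 147 FPKM in ultrasound 1 and 177 and 194 FPKM in ultrasound 2 and 3. Cox6b1 had 150 to 186 FPKM in controls, 156 FPKM in ultrasound 1 and 222 and 226 FPKM in ultrasound 2 and 3. Cox8a had 161 to 180 FPKM in controls, 175 FPKM in ultrasound 1 and 231 and 220 FPKM in ultrasound 2 and 3. In all 3 genes ultrasound 1 was inside the control range and the other two libraries above it, and they had limma adjusted p of 0.214, 0.262 and 0.161. Without ultrasound 1 all 3 were called, as were 53.7% of all genes tested. The log2 differences of the 3 were then 0.35, 0.47 and 0.42 (limma adjusted p 0.00725, 0.00851 and 0.00395). Cox4i1 was not called, at 0.20 (limma adjusted p 0.0621). Cox7b lay at 54.99 to 71.8 FPKM in controls and 65.0 to 79.3 FPKM in ultrasound libraries.

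Cox7a2 and Cox7a2l, the latter a relative of Cox7a2 found in respiratory supercomplexes, had negative log2 differences. Cox7a2 was the most negative of complex IV, with 62.9, 45.7 and 51.0 FPKM in controls and 48.1, 43.3 and 44.0 FPKM in ultrasound 1, 2 and 3 (log2 difference -0.22, limma adjusted p 0.269). Cox7a2l had 273 to 277 FPKM in controls and 241, 274 and 249 FPKM in ultrasound 1, 2 and 3 (log2 difference -0.11, limma adjusted p 0.387). Ndufa4, named for complex I and now counted with complex IV, had 115 ± 16.0 FPKM in controls and 128 ± 8.94 FPKM in ultrasound libraries (SD, n = 3 each). Cox6b2, the testis form of Cox6b1, had the most positive value of complex IV at a low level. It had 1.64, 0.754 and 0.842 FPKM in controls and 1.73, 1.85 and 2.29 FPKM in ultrasound 1, 2 and 3, without overlap, and a log2(FPKM + 1) difference of 0.53 (standard error 0.18, limma adjusted p 0.110). Control 1 was nearly level with ultrasound 1, and Cox6b2 passed the threshold when either of these libraries was left out (limma adjusted p 0.0462 without control 1 and 0.0370 without ultrasound 1, a fit that called 53.7% of all genes tested). It had at least 1 FPKM in all 3 ultrasound libraries and in only 1 control, so it met the filter through the group where it was high, and these calls are not independent of the filter. With a pseudocount of 0.1 its difference was 0.87, and with voom on recovered reads 0.93, neither called.

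Complex V has a catalytic F1 head, a peripheral stalk that holds it still and a membrane part with the rotating ring. Of the 5 F1 genes, 1 had an unadjusted p under 0.05, beside the same 31.2% of all genes tested. Atp5b, the catalytic beta subunit and the most abundant of the 84 genes, had 415, 417 and 393 FPKM in controls and 412, 402 and 383 FPKM in ultrasound 1, 2 and 3 (log2 difference -0.03, standard error 0.08). Atp5a1, the alpha subunit, had 272 ± 11.8 FPKM in controls and 273 ± 6.69 FPKM in ultrasound libraries (SD, n = 3 each). Atp5e, the small epsilon subunit on chromosome 2 from 174461072 to 174464105, was that gene. It had 169, 138 and 160 FPKM in controls and 136, 108 and 109 FPKM in ultrasound 1, 2 and 3, with ultrasound 1 only just below control 2. The log2 difference was -0.41 (standard error 0.13, limma adjusted p 0.0968). Atp5c1, the gamma subunit, was also below every control in all 3 ultrasound libraries (log2 difference -0.16, limma adjusted p 0.259). Without ultrasound 1 Atp5e was called (log2 difference -0.52, limma adjusted p 0.00402), as were 53.7% of all genes tested, and Atp5c1 was not (0.106).

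In the peripheral stalk 3 of 4 subunits had a log2 difference between -0.06 and 0.01. Atp5h, the most abundant, had 154 to 178 FPKM in controls and 146 to 175 FPKM in ultrasound libraries, and its difference of 0.00 turned sign under several settings. Atp5pb was the most negative at -0.06, with 126 ± 10.2 FPKM in controls and 121 ± 3.49 FPKM in ultrasound libraries (SD, n = 3 each). Atp5o, which joins stalk and head, was the most positive at 0.22, with 112 to 120 FPKM in controls, 117 FPKM in ultrasound 1 and 148 and 143 FPKM in ultrasound 2 and 3 (limma adjusted p 0.226). Without ultrasound 1 the value of Atp5o was 0.32 (limma adjusted p 0.00636), in a fit that called 53.7% of all genes tested. Of the annotated exon bases of Atp5o, 54.1% also belong to Donson on the same strand, which was expressed at 13.0 to 15.3 FPKM, so the assignment of reads is uncertain there.

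The membrane part held the widest range of any class, with an SD of 0.41 over its 8 log2 differences, against 0.12 in the stalk. Atp5k, subunit e, which takes part in pairing ATP synthases into dimers, had the most negative value of all 84 genes. It lies on chromosome 5 from 108433244 to 108434448 (minus strand). Its level was 107, 72.1 and 81.4 FPKM in controls, 70.7 FPKM in ultrasound 1 and 37.4 and 39.0 FPKM in ultrasound 2 and 3. All 3 treated libraries were below the controls, ultrasound 1 by a narrow margin. The log2 difference was -0.85 (standard error 0.27, limma adjusted p 0.0932), and the limma adjusted p ran from 0.00298 to 0.505 over the 16 planned refits. Without ultrasound 1 it was -1.14 (limma adjusted p 0.00298), in a fit that called 53.7% of all genes tested. In the authors' deposited table Atp5k has a log2 fold change of -0.95 and a q of 0.0258.

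The ring of subunit c is encoded by 3 genes, Atp5g1, Atp5g2 and Atp5g3, whose mature proteins are the same while their import sequences differ. Atp5g2 had 141, 130 and 141 FPKM in controls, 134 FPKM in ultrasound 1 and 211 and 195 FPKM in ultrasound 2 and 3 (log2 difference 0.36, standard error 0.17, limma adjusted p 0.198). Atp5g3 had 99.98, 95.6 and 85.6 FPKM in controls, 95.7 FPKM in ultrasound 1 and 68.7 and 68.9 FPKM in ultrasound 2 and 3 (log2 difference -0.28, standard error 0.15, limma adjusted p 0.236). In ultrasound 2 and 3 Atp5g2 was thus above and Atp5g3 below every other library, and in ultrasound 1 both were inside the control range. Atp5g1 had 38.6 to 41.0 FPKM in controls and 39.3, 45.2 and 47.6 FPKM in ultrasound 1, 2 and 3 (log2 difference 0.15, limma adjusted p 0.314). Without ultrasound 1 all 3 genes were called, as were 53.7% of all genes tested. The log2 differences were then 0.56 for Atp5g2 (limma adjusted p 0.00124), -0.44 for Atp5g3 (0.00435) and 0.23 for Atp5g1 (0.0245). Of the summed FPKM of the 3 genes, Atp5g2 made up 49.2% to 53.1% in controls, 49.9% in ultrasound 1 and 65.0% and 62.6% in ultrasound 2 and 3. The Atp5g3 share was 32.2% to 36.2% in controls, 35.5% in ultrasound 1 and 21.1% and 22.1% in ultrasound 2 and 3. Their sum was 264 to 282 FPKM in controls, 270 FPKM in ultrasound 1 and 325 and 312 FPKM in ultrasound 2 and 3.

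**Figure D3:**
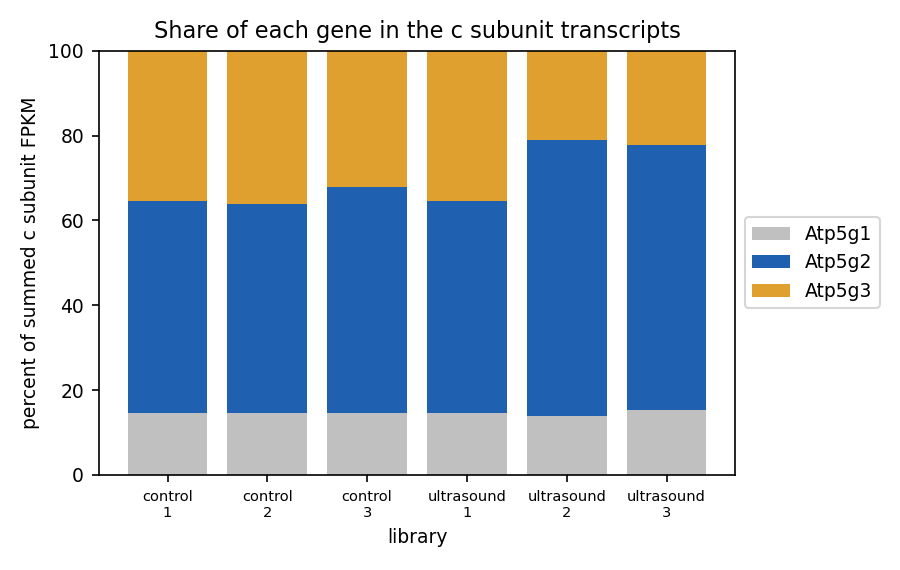
Percent of the summed FPKM of Atp5g1, Atp5g2 and Atp5g3 (y axis) contributed by each gene in each library (x axis). The Atp5g2 share is 49.2% to 53.1% in the controls, 49.9% in ultrasound 1, and 65.0% and 62.6% in ultrasound 2 and ultrasound 3.

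The authors' deposited comparison, made on DESeq2-normalized counts, gave another set of calls. Of the 89 genes, 7 in the authors' deposited table have a q under 0.05, or 7.87%, against 12.3% of all genes listed. All 7 are lower in ultrasound libraries, where 4.98% of all genes listed are called lower and 7.3% higher. The authors' deposited table gives log2 fold changes of -0.95 for Atp5k, -0.55 for Ndufb1, -0.53 for Atp5e, -0.42 for Uqcrh, -0.37 for Ndufa6, -0.29 for Atp5c1 and -0.24 for Cox7a2l. By limma none of these 7 passed, and their adjusted p ran from 0.0932 for Atp5k to 0.387 for Cox7a2l. The median log2 change in the authors' deposited table is -0.03 over the 89 genes and 0.03 over all genes listed.

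The summed level of all 84 genes did not separate the groups. It made up 1.56%, 1.44% and 1.41% of all FPKM in controls 1, 2 and 3 and 1.45%, 1.60% and 1.58% in ultrasound 1, 2 and 3. Control 1 was close to ultrasound 2 and 3, and its median deviation from the control mean over the members was 0.10. Control 1 also had the highest macrophage and monocyte marker sum among the controls, 1298 FPKM against 690 and 639 FPKM, and the part of that in the result was not tested.

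The balance with the partner subunits encoded in mitochondrial DNA differed between ultrasound 2 and 3 and the other 4 libraries. For complex I the ratio of mitochondrially to nuclear-encoded summed FPKM was 3.21, 3.804 and 4.63 in controls, 3.91 in ultrasound 1 and 1.252 and 1.17 in ultrasound 2 and 3. For complex III, with CYTB (cytochrome b) as its mitochondrial gene, it was 3.57 to 5.19 in controls, 4.38 in ultrasound 1 and 2.16 and 2.06 in ultrasound 2 and 3. For complex IV it was 3.75 to 5.64 in controls, 4.42 in ultrasound 1 and 1.64 and 1.66 in ultrasound 2 and 3. The complex IV ratio rested mostly on COX1, at 6523 to 8851 FPKM in controls, against 163 to 261 FPKM for COX2 and 81.2 to 130 FPKM for COX3. For complex V, with ATP6 and ATP8, it was 0.0430 to 0.0609 in controls, 0.0667 in ultrasound 1 and 0.00376 and 0.00519 in ultrasound 2 and 3. ATP6 was at 65.2 to 100 FPKM in controls, and ATP8 fell to 0.131 and 0 FPKM in ultrasound 2 and 3, so this ratio rests on low values. In each complex ultrasound 1 lay within or above the controls and the other two below them. The nuclear sums of complex I were 1601 to 1849 FPKM in controls and 1666, 1942 and 1919 FPKM in ultrasound 1, 2 and 3, while the mitochondrial sums were 5934 to 7601 FPKM and 6516, 2431 and 2246 FPKM. None of the 13 mitochondrially encoded genes passed limma, with a lowest adjusted p of 0.0835, 6 at an unadjusted p under 0.05 and a median log2 difference of -1.36.

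**Figure D4:**
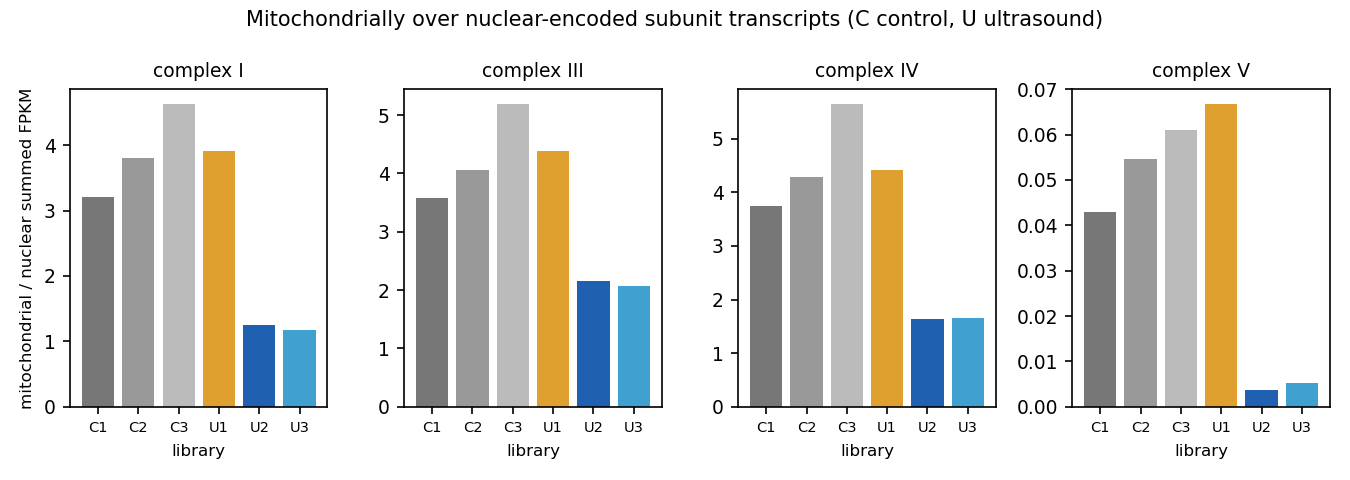
Ratio of summed FPKM of mitochondrially encoded to nuclear-encoded subunits (y axis, from 0, own scale in each panel) in each library (x axis), for complexes I, III, IV and V. In all 4 panels ultrasound 2 and ultrasound 3 lie below the other 4 libraries.

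Genes of the pathway outside the symbol rule were read beside all genes tested. Of those, limma called 8.11% (6.55% higher and 1.56% lower), and 31.2% had an unadjusted p under 0.05. With 5 to 21 genes in a list, counts this small cannot be told apart from these shares. Of 8 further subunits and carriers (succinate dehydrogenase, Cyc1, Cycs, Atpif1 and Dmac2l), limma called none and 2 had an unadjusted p under 0.05, with a median log2 difference of 0.22. Sdhc, a membrane anchor of complex II, was above every control, at 51.5, 63.2 and 56.1 FPKM against 42.6 to 49.1 FPKM. Of 21 complex IV assembly factors 1 was called lower and none higher. That gene was Cox20, a chaperone of the mitochondrially encoded subunit COX2, with 22.64, 22.64 and 24.4 FPKM in controls and 18.4, 14.2 and 14.2 FPKM in ultrasound 1, 2 and 3 (log2 difference -0.55, standard error 0.12, limma adjusted p 0.0418). No gene, Cox20 included, passed when control 2, control 3, ultrasound 2 or ultrasound 3 was left out. Among 11 assembly factors of complex I outside the rule limma called none and 1 had an unadjusted p under 0.05, with a median log2 difference of 0.14. For 6 assembly factors of complex III and 5 of complex V limma called none, none had an unadjusted p under 0.05, and the medians were 0.02 and 0.13. Of 14 tricarboxylic acid cycle enzymes none was called and 2 had an unadjusted p under 0.05 by limma, with a median of 0.12. Among 15 tested transcription regulators of mitochondrial genes limma called none and 3 had an unadjusted p under 0.05, with a median of 0.05. Tefm, a mitochondrial transcription elongation factor, had the lowest adjusted p of that list, 0.0770 by limma.

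Promoter letters were compared because regulators of many respiratory genes, among them NRF1, GABPA and YY1, are known to bind near their start sites. RefSeq promoter windows (GRCm38.p6, 250 bases before to 50 after the start) were found for 73 of the 89 genes. The motifs searched on both strands were, for NRF1, the palindrome in capitals in the first promoters printed below, CCGGAAGT for GABPA and AAGATGGCG for YY1, and no window held 2 of them sharing bases. NRF1 letters were in the windows of 9.59% of the 73 genes, 2.55% of the tested genes with a window and 1.07% of all genes with a window. GABPA letters were in 6.85%, 10.1% and 4.31%, and YY1 letters in 10.96%, 4.05% and 1.64%. Of 71 tested members with a window, 37 had ultrasound 2 and 3 above the other 4 libraries, and 10 of these 37 held at least 1 motif. Of 16 with both below, 3 did, and of the 18 others 7 did.

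The promoters printed here show that the same letters stood before members with opposite differences. Each is the 250 bases before the RefSeq start, in lower case with the motif in capitals. Ndufa11 (chr17:56717512-56717761, plus strand) and Atp5g2 (chr15:102671048-102671297, minus strand) had positive differences and Atp5k (chr5:108434400-108434649, minus strand) a negative one, and all 3 hold the NRF1 letters 60, 42 and 50 bases before the start. Uqcr11 (chr10:80406822-80407071, minus strand) and Uqcrh (chr4:116075071-116075320, minus strand) differ in sign as well and hold the GABPA letters, in Uqcrh on the opposite strand.
Ndufa11: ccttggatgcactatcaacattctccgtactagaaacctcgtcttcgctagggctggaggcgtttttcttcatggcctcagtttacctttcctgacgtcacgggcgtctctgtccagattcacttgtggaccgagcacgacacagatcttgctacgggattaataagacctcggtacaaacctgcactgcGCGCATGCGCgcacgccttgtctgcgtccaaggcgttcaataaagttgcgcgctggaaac
Atp5g2: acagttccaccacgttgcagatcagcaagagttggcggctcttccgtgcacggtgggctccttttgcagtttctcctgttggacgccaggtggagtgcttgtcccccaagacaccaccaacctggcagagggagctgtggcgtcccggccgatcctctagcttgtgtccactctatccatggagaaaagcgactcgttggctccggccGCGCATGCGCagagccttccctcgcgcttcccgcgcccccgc
Atp5k: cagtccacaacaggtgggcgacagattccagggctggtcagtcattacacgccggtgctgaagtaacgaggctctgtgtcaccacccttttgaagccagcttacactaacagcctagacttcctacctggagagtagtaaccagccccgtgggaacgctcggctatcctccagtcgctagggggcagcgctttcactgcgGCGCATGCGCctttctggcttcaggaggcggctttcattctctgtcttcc
Uqcr11: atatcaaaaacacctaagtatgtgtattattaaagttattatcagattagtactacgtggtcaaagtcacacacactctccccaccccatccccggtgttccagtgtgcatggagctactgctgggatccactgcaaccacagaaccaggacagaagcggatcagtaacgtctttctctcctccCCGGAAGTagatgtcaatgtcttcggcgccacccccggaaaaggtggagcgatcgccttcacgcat
Uqcrh: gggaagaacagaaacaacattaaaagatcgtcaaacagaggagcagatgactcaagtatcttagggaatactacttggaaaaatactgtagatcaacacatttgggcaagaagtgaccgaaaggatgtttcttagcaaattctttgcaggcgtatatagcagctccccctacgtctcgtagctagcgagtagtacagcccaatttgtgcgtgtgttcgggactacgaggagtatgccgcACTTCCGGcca
A match describes letters and no binding was measured.

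Transcript base composition ran along with the direction in ultrasound 2 and 3. GC content, from GENCODE M21 transcripts, was available for 81 of the 84 genes. Spearman's rho between GC content and the log2 deviation from the control mean was 0.04 in ultrasound 1, 0.26 in ultrasound 2 and 0.33 in ultrasound 3 over these genes. Over all tested genes with a value, 10346, it was 0.01, 0.39 and 0.46. These are descriptions across genes of single libraries, and all 3 share the same control mean. Among the 27 members with the highest GC content, over 53.9%, ultrasound 2 and 3 were above the other 4 libraries in 19 and below in 3. Among the 27 lowest, at 49.9% or under, they were above in 10 and below in 7. All tested genes with a value were split by their own bounds, over 53.7% for the highest and at 47.8% or under for the lowest group. In the highest group of 3449 genes, ultrasound 2 and 3 were above in 1950 and below in 316, and in the lowest group of 3449 genes they were above in 463 and below in 1685. The 27 lowest members were thus more often above than below, whereas the lowest group of all genes was more often below. The bounds of these groups differ, so the counts do not compare genes of like GC content, and their difference was not tested. Among members of high GC content, Ndufs8 at 57.8% and Ndufa11 at 58.2% were above in ultrasound 2 and 3. Atp5k at 54.5% and Ndufaf8 at 59.3% were below. The part of base composition in these differences was not tested.

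**Figure D5:**
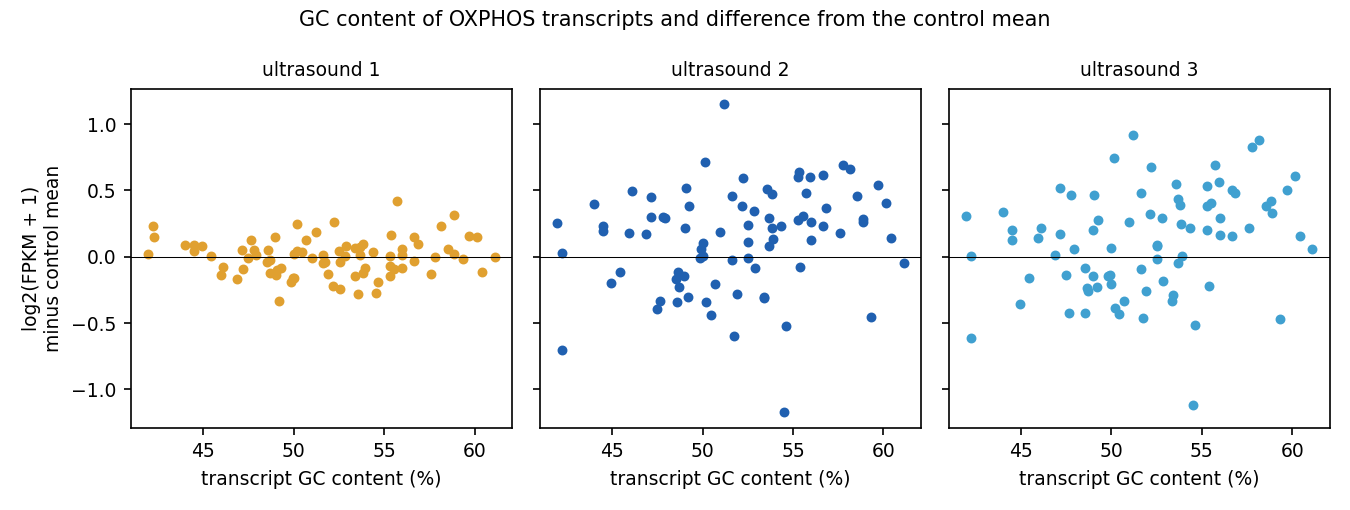
GC content of the transcript in percent (x axis) against the difference of log2(FPKM + 1) from the control mean (y axis) for 81 genes, 1 panel for each ultrasound library. The points of ultrasound 1 stay flat (rho 0.04), those of ultrasound 2 and ultrasound 3 tilt upwards with GC content (rho 0.26 and 0.33).

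At the limit of the filter, the 3 members just inside were Ndufaf6, Cox6b2 and Ndufs6b. Their levels in the library of rank 3 were 1.14, 1.73 and 2.45 FPKM. Ndufaf6, an assembly factor, had 1.01 to 1.16 FPKM in controls and 0.828 to 1.14 FPKM in ultrasound libraries, and Ndufs6b, a copy of Ndufs6, had 1.14 to 3.71 and 1.88 to 2.46 FPKM. Just outside were Ndufb4b, Ndufb4c and Cox7a1. Ndufb4b had 26, 11 and 15 reads in controls and 21, 8 and 6 reads in ultrasound 1, 2 and 3. Ndufb4c had 14, 9 and 12 reads in controls and 12, 0 and 2 reads in ultrasound 1, 2 and 3, where 0 reads allow up to 0.0800 RPM (reads scaled to library size; 3 reads, counting error only). Cox7a1 stood at 0.308 to 0.372 FPKM in controls and 0.432 to 1.04 FPKM in ultrasound libraries. The other two members outside the filter, Cox4i2 and Cox6a2, reached at most 0.147 and 0.971 FPKM in any library.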

How the data were processed

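RNA-seq of 6 libraries was analysed, 3 control and 3 ultrasound. The submitters' processing notes name HISAT2, HTSeq, DESeq2, R 3.2.0 and the mm10 build, with no roles or order given. The authors deposited FPKM values per gene and library, with group means of normalized counts (a count signal scaled between libraries), log2 fold changes, p-values and q-values. Because the values were FPKM, the planned count model was not the main test. limma 3.58.1 (R 4.3.3, trend and robust options) was fitted to log2(FPKM + 1) for 10655 genes with at least 1 FPKM in at least 3 libraries, with Benjamini-Hochberg adjustment over all of them and a threshold of 0.05. Fold changes on this scale understate low genes. A linear relation between FPKM and the deposited group means gave whole reads for 100% of 63998 values checked, within 0.05 of a whole number; these reads served depth, scaling factors and voom. No library pair agreed within sampling noise (lowest chi-square per degree of freedom 22.1). On simulated counts for this comparison, limma recovered 99.5% of 200 altered genes at a dispersion of 0.01 over 10568 genes, with 12 false calls. At 0.05 over 10559 genes it recovered 78.5%, with 8 false calls. Recovery of differences of the size seen in the members was not tested. An exact permutation test of 3 against 3 libraries cannot go below 0.1 and was not used.

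Members and lists were chosen with earlier results of these data known. Genes were named as the highest, most positive and most negative of each class, isoform sets, those at the filter limit, and genes of other lists that passed. A further gene that this rule names is not reported here. Ndufa11, Ndufb4, Ndufs7, Ndufv1, Ndufaf2, Uqcr11, Uqcrc1, Uqcrfs1, Atp5c1, Sdhc, Tefm and the genes of the authors' calls were chosen after their values were seen. Of 85 members matched to GENCODE M21, 30 share exon bases with another gene, and whether counting used strand is not given in the sources used here.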

Additional observations from a re-analysis of the deposited data

Results flagged for a closer look

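Reads of isoforms known from muscle or lung, which lay below the filter of the main limma test, exceeded the control level in ultrasound 2. For Cox6a2 and Cox7a1 they also did in ultrasound 3. Of all genes tested, which passed that filter, 37.3% had ultrasound 2 and 3 above the other 4 libraries. The share among genes below the filter is not given here. The other members below the filter, Ndufb4b and Ndufb4c, went the other way, with fewer reads in ultrasound 2 and 3 than in every control. Cox6a2, the heart and muscle form of Cox6a1, had 4, 2 and 1 reads in controls and 2 reads in ultrasound 1, but 24 reads in ultrasound 2 and 18 reads in ultrasound 3. Of its annotated exon bases, 10.3% also belong to Itgad on the opposite strand, which had 7.44 to 10.5 FPKM in controls and 11.6, 14.7 and 19.2 FPKM in ultrasound 1, 2 and 3. The part of those reads in the Cox6a2 values was not tested. Cox7a1, the muscle form of Cox7a2, had 6, 6 and 5 reads in controls and 7 reads in ultrasound 1. It had 18 reads in ultrasound 2 and 10 reads in ultrasound 3. With so few reads the counting error is large, and the excess in ultrasound 3 is uncertain. Cox4i2, the lung form of Cox4i1, had 0 reads in each control, 1 read in ultrasound 1, 4 reads in ultrasound 2 and 3 reads in ultrasound 3, and only ultrasound 2 exceeded the 3 reads that a count of 0 allows.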

How the results depend on the processing

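Members with few reads, such as Cox4i2, have values set by counting error. None of the 84 members was called under a pseudocount of 0.1, no filter, at least 10 reads in every library, other scaling factors, rescaling without mitochondrial, hemoglobin and immunoglobulin genes, no robust option, voom, a replicate block or a term for ultrasound 2 and 3. Without a filter and with a replicate block limma called 0 genes in all, so these fits cannot set the members apart. All-gene counts are not given here for the pseudocount, the minimum of 10 reads, upper-quartile factors, the rescaling, no robust option and voom. Over all genes the 864 calls (698 higher, 166 lower) became 0 without a filter (4216 at an unadjusted p under 0.05), 437 with median-of-ratios factors (293 higher, 144 lower) and 150 with a term for ultrasound 2 and 3. The replicate numbers did not pair the libraries (correlations of deviations -0.0406, 0.0513 and 0.0578), and with a replicate block limma called 0 genes (3249 at an unadjusted p under 0.05, 14 of them members). Leaving out 1 library gave 0 to 5727 genes, 0 to 35 members higher and 0 to 13 lower; the 0 arose without control 2, control 3, ultrasound 2 or ultrasound 3 (1962, 2154, 2058 and 1998 genes at an unadjusted p under 0.05), and without control 1 it was 567. Without ultrasound 1 and with median-of-ratios factors, added after seeing the data, 5322 genes were called (2540 higher, 2782 lower), with 19 members higher and 20 lower. The authors' deposited table calls 2179 genes, with 7 members lower. Of 558 values for 31 named genes under 18 settings, 482 kept direction and side of the threshold, 42 newly passed and 34 turned sign, none of them past the threshold in the main comparison.

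The log2 differences that turned sign were, with median-of-ratios factors, -0.0997 for Atp5a1, -0.1047 for Atp5h and -0.0192 for Cox4i1; with upper-quartile factors, -0.0889, -0.0939 and -0.0084 for the same genes; and with the rescaling, -0.0073 for Atp5a1 and -0.0124 for Atp5h. In the authors' deposited table they are -0.1192 for Atp5a1, -0.1235 for Atp5h and -0.0326 for Cox4i1. With a term for ultrasound 2 and 3 they were 0.0133 for Atp5b, -0.007 for Atp5g1, -0.0303 for Atp5g2, 0.0336 for Atp5g3, -0.1633 for Atp5h, -0.1314 for Cox4i1, -0.0448 for Cox6b1, -0.2779 for Ndufa3, 0.1457 for Ndufaf4, 0.02 for Ndufaf6, 0.042 for Ndufs1 and 0.0821 for Ndufs6b. Without ultrasound 1 and with median-of-ratios factors they were -0.1311 for Atp5a1 and -0.0338 for Atp5h. Leaving out 1 library gave -0.0945 to 0.0083 for Atp5pb, -0.364 to 0.2029 for Ndufs6b, -0.05 to 0.083 for Atp5h, -0.0295 to 0.031 for Atp5a1 and -0.1005 to 0.0133 for Ndufaf6. The cause was not tested.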
